A study of Mus musculus with 6 samples.

Results

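The genes described here act in the response to stress of the endoplasmic reticulum (ER), in the integrated stress response and in the supply of amino acids. Their mRNA levels were compared between proliferating and differentiating enterospheres. Of 52 gene symbols chosen for these roles, 50 had a transcript cluster, the array's unit of measurement, that carried exactly that symbol, among 19938 genes measured in this way. Aars and Mars had none. The cluster of Aars is annotated with Exosc6 as well and was not used here, while a cluster named Mars1, which has the Entrez identifier of Mars, is given beside the other synthetases. Pdia4 and Dnajc3 had 2 clusters each, and the cluster with the higher mean over the 6 arrays was kept. The second cluster of Dnajc3 held the same values in every array, and that of Pdia4 differed between the groups by 0.11 on the log2 scale (limma, adjusted p = 0.859).

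Unfolded protein in the ER is sensed by the kinase PERK (gene Eif2ak3), the kinase and ribonuclease IRE1 (Ern1) and the membrane-bound factor ATF6, while the kinase GCN2 (Eif2ak4) senses uncharged tRNA when amino acids run short. PERK and GCN2 phosphorylate the initiation factor eIF2, which lowers translation of most mRNAs but favours that of ATF4, and ATF4 with its C/EBP partners then drives genes for amino acid synthesis, transport and tRNA charging. ATF6 and XBP1, whose mRNA is spliced by IRE1, drive chaperones of the ER instead. Phosphorylation, splicing and translation are not measured by these arrays, which report mRNA levels alone.

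Enterospheres are floating spheroids that were grown from dissociated gut muscle tissue of newborn C57BL/6 mice and contain enteric neural progenitors beside other cell types. No genetic change is named for any sample. All 6 samples were cultured for 11 days in total. The 3 proliferation samples stayed in proliferation medium with daily EGF and FGF throughout, whereas the 3 differentiation samples spent the last 2 days without EGF and FGF and with ascorbic acid-2-phosphate. Both media contained N2 supplement and L-glutamine. The labels list B27 supplement for the proliferation medium alone, and the methods state that it was given a single time before seeding. The effects of these components cannot be told apart. By the labels each sample came from 3 pooled mice, EGF was given at 10 ng/mL and FGF at 20 ng/mL, the first culture phases lasted 4 and 5 days and a dish held about 50 enterospheres. The methods differ from this in the number of pups, the EGF dose and the length of the phases. Each sample is a mixture of cells, so fewer cells of a type and less RNA per cell cannot be told apart.

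All values are log2 RMA values, 1 array per sample, so that a difference of 1 is a 2-fold change. Differences are given as differentiation minus proliferation. A gene is said to have risen or fallen where limma gave an adjusted p under 0.05 (Benjamini-Hochberg over all 35556 clusters), and 3 samples against 3 cannot give an exact permutation p under 0.1. By this rule 5.91% of the 19938 genes were called. The median difference over all genes was 0.02. Arrays of the same group correlated at r of 0.988 to 0.995 and arrays of different groups at 0.983 to 0.989 across clusters. All 50 genes had a mean above 6.15, the median over all clusters.

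Of the 50 genes for stress and amino acid supply, 6 rose in differentiating enterospheres (12%, beside 2.94% of all genes) and 0 fell (2.97% of all genes). The 6 were Stc2, Chac1, Ppp1r15a and Trib3, which are effectors of the stress response, the folate enzyme Mthfd2 and the glycyl-tRNA synthetase Gars. When the replicate number was added to the model as a block, 2 of these 6 calls were kept, those of Stc2 and Chac1. Among the 20 targets of ATF4 (stress effectors, synthesis genes and transporters) 5 rose, among the 6 measured tRNA synthetases 1 rose, and among the 13 ER chaperones 0 did. The chaperones included 1 gene with an unadjusted p under 0.05 in limma, Herpud1, and 0 by the methods' t-test. By that t-test (unadjusted p under 0.05 with at least 1.5-fold change), 3 of 50 genes passed, a share near the 5.66% of all genes. They were the effectors Stc2, Chac1 and Ppp1r15a.

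The median difference was 0.25 over the ATF4 targets, 0.28 over the synthetases and 0.01 over the chaperones. In 11 of 20 ATF4 targets and 5 of 6 synthetases every differentiation array lay above every proliferation array, which held for 1 of 13 chaperones, and in 2 chaperones the order was the opposite. Over all 50 genes these counts were 23 above and 2 below, beside 14.6% and 12.9% of all genes. Of the 50 differences 39 were positive, with a median of 0.16. All 50 genes had a mean above the median of all clusters, which held for 11985 of the 19938 genes. The shares over all genes thus include dimmer genes. An unadjusted p under 0.05 was found for 23 of the 50, all of them higher in differentiation, and for 3816 of all genes, of which 1893 were higher. The differences between the classes as such were not tested.

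**Figure D1:**
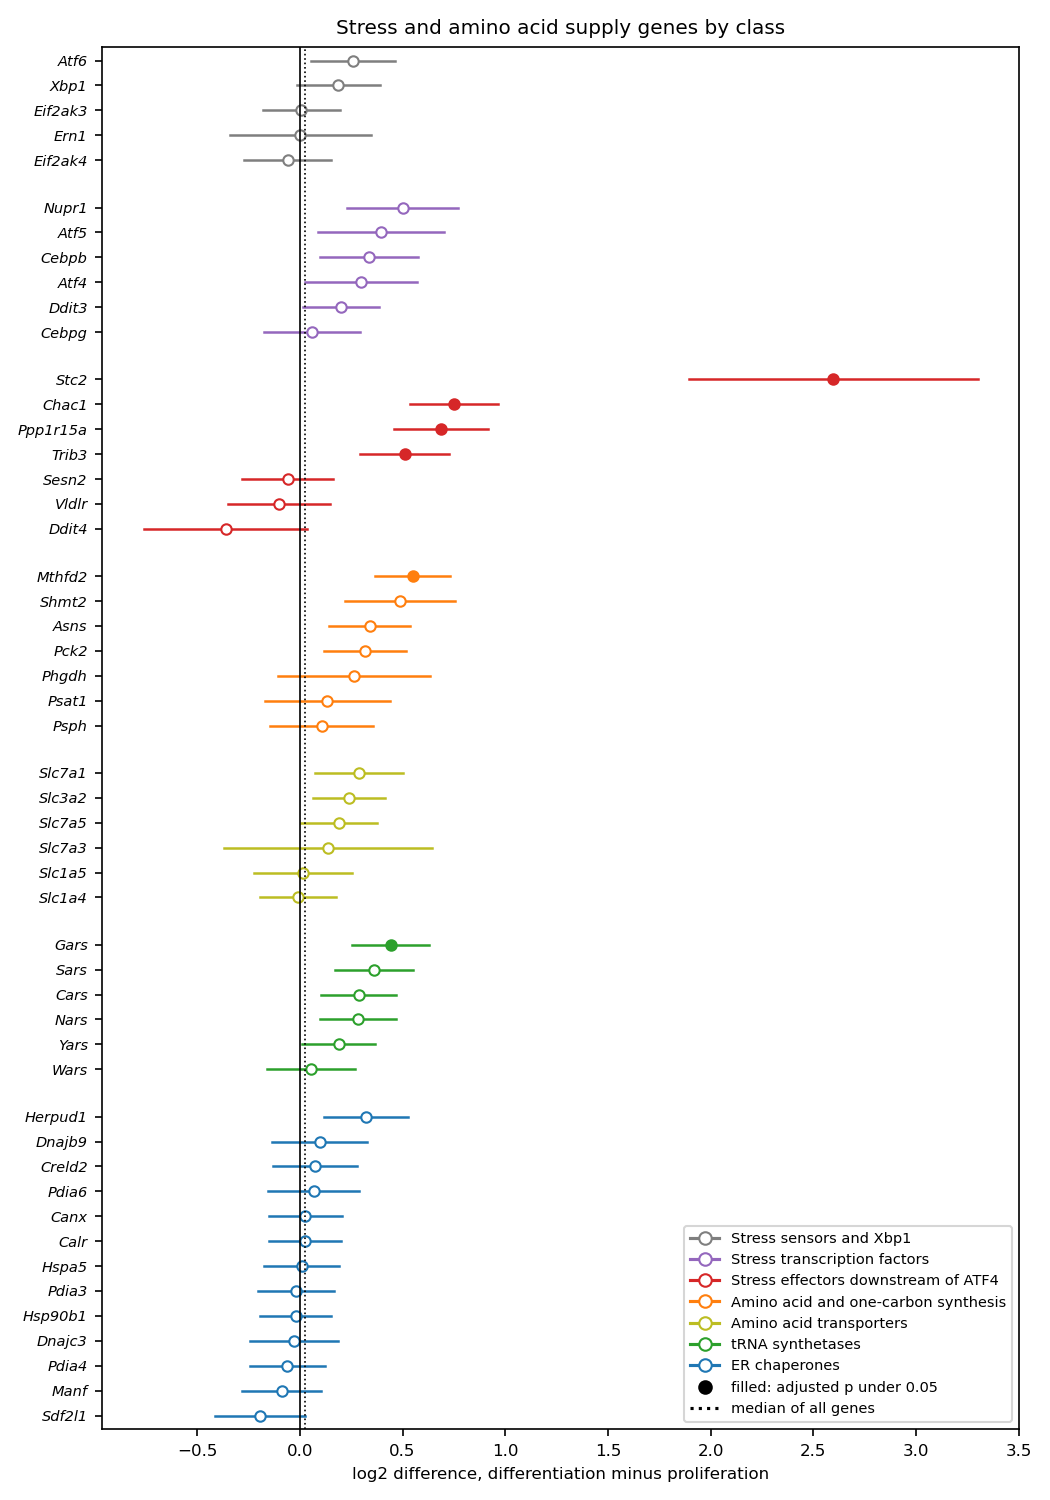
Log2 difference (differentiation minus proliferation) of each of the 50 genes on the horizontal axis, grouped and coloured by class, with 95% confidence intervals from limma and filled points for adjusted p under 0.05. Stc2 stands at 2.60, the other 5 filled points lie between 0.44 and 0.75, and 12 of the 13 ER chaperones lie between -0.20 and 0.10.

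The DNA just upstream of these genes is shown because ATF4 targets and ER chaperones are known to be driven through different elements. RefSeq promoter sequences (GRCm38.p6) were found for 43 of the 52 genes, and the 250 bases before the start of each gene were searched on both strands. Slc7a3, Nars, Slc7a5, Atf6, Slc1a5, Manf, Mars, Wars and Cars had no entry. The core of the composite C/EBP-ATF element, TGATGNAA, was present in 3.91% of all 27025 genes of the table and in 8 of the 43, namely Chac1, Asns, Pck2 and Vldlr among the ATF4 targets, the synthetases Gars and Aars, the transcription factor gene Nupr1, and Herpud1. The ER stress element, CCAAT and CCACG with 9 bases between them, was present in 0.13% of all genes and in 7 of 12 ER chaperones with an entry, namely Hspa5, Hsp90b1, Calr, Canx, Pdia6, Creld2 and Dnajc3, and in 0 of 17 ATF4 targets. The second form of the ER stress element, ATTGG and CCACG with 1 base between them, was present in 0.037% of all genes and in Herpud1. The UPR element TGACGTGG was present in 0.603% of all genes and in 0 of the 43, and the E-box CACGTG in 6.86% of all genes and in 4 of the 43. Both forms of the ER stress element hold CCACG, and ATTGG is CCAAT read on the other strand. The elements were chosen because they are known for these classes, so their shares are a description and no independent result. A match of letters is no measure of binding.

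The C/EBP-ATF core is in capitals in the following 3 windows, which belong to a stress effector, an amino acid enzyme and a synthetase. They lie at chr2:119350992-119351241 (plus strand) for Chac1, chr6:7693210-7693459 (minus strand) for Asns and chr6:55037751-55038000 (plus strand) for Gars, each written 5′ to 3′ towards the start of the gene.
Chac1: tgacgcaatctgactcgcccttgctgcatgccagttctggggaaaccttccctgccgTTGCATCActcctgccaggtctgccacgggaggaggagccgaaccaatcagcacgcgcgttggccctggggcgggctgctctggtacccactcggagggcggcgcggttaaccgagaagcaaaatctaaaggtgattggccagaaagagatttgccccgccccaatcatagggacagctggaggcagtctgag
Asns: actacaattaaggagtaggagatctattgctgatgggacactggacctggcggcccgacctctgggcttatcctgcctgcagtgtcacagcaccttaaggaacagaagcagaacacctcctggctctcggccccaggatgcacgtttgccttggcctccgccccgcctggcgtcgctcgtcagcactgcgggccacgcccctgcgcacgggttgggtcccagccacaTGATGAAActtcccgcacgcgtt
Gars: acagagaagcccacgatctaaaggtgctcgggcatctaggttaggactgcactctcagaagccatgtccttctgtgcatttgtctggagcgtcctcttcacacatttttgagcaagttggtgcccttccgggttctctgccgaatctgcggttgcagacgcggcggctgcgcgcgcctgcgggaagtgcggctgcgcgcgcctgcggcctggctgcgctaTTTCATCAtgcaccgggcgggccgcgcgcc

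Herpud1, the chaperone class gene with the largest difference, held both kinds of letters in the window chr8:94386179-94386428 (plus strand), with the C/EBP-ATF core first and the second form of the ER stress element after it in capitals. The windows of Hspa5 (chr2:34771840-34772089, plus strand) and Hsp90b1 (chr10:86705445-86705694, minus strand) are shown as those of the best known ER chaperones, with the ER stress element in capitals, once in Hspa5 and at 2 positions in Hsp90b1.
Herpud1: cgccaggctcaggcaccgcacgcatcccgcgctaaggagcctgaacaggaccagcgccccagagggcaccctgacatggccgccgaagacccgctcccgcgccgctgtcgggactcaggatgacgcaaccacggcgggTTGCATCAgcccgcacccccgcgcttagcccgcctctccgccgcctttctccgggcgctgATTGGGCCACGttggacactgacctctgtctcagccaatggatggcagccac
Hspa5: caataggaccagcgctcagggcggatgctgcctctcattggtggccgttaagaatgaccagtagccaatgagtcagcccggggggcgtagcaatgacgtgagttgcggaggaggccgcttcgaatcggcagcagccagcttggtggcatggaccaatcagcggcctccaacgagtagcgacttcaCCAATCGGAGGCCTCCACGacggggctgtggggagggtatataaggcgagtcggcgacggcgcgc
Hsp90b1: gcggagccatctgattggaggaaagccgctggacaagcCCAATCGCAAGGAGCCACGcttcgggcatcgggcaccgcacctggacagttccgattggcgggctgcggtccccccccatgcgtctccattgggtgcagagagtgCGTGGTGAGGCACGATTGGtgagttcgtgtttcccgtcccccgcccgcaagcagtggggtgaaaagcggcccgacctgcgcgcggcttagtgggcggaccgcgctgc

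Of the 14 measured genes with any of these 3 elements, Chac1 and Gars rose, beside 2.94% of all genes. Whether holding an element goes with a change was not tested. The 7 chaperones with the ER stress element had differences between -0.03 and 0.07, and the 7 genes with the C/EBP-ATF core had differences of 0.75 in Chac1, 0.50 in Nupr1, 0.44 in Gars, 0.34 in Asns, 0.32 in Herpud1 and in Pck2, and -0.10 in Vldlr. Stc2, Ppp1r15a, Trib3 and Mthfd2 rose and held none of these letters within the searched bases, which says nothing on elements elsewhere.

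**Figure D2:**
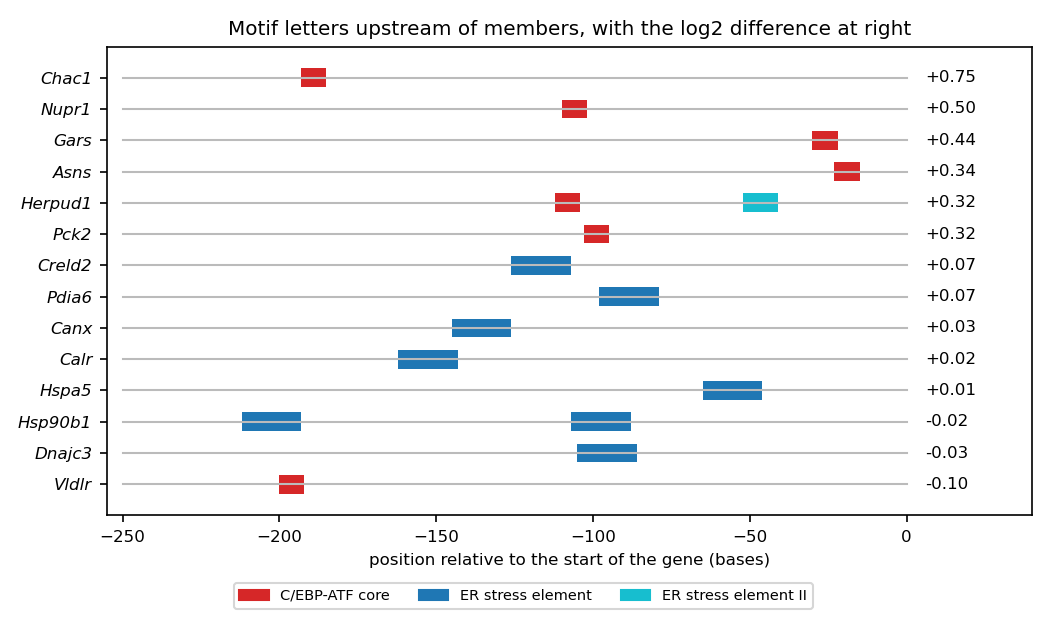
Position of the C/EBP-ATF core (red) and the ER stress elements (blue and cyan) in the 250 bases before the start of each gene, with the start at 0, for the 14 measured genes that hold one. Genes are ordered by their log2 difference, printed at the right, and the blue bars belong to genes between -0.03 and 0.07.

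Among the sensors of stress, 0 of 5 genes passed the test in limma, counting Xbp1 with them, and 1, Atf6, had an unadjusted p under 0.05. Atf6 read 9.33, 9.35 and 9.17 in proliferation replicates 1, 2 and 3 and 9.53, 9.50 and 9.60 in differentiation replicates 1, 2 and 3, in which order values are given throughout. All 3 differentiation arrays lay above the proliferation arrays, and the difference of 0.26 had an adjusted p of 0.2 in limma. Xbp1, which codes for the chaperone-inducing factor, read 10.93, 10.91 and 11.07 in proliferation and 11.10, 11.22 and 11.15 in differentiation, again without overlap, with a difference of 0.19 (adjusted p = 0.362, limma). Eif2ak3 (PERK) and Ern1 (IRE1) differed by 0.01 and 0.00, and Eif2ak4 (GCN2) by -0.06. The proliferation arrays of Ern1 alone spread from 8.18 to 8.75, so its 95% interval reached from -0.34 to 0.34.

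Of the 6 transcription factors of the integrated stress response 0 passed the test over all clusters. Unadjusted p values under 0.05 were found in limma for 5 of the 6, all but Cebpg, beside 3816 of all 19938 genes. The median difference of the 6 was 0.32. Atf4, the central factor of the pathway, read 8.07, 7.96 and 8.25 in proliferation and 8.41, 8.53 and 8.24 in differentiation. The third replicates of both groups overlapped, and the difference of 0.30 had an adjusted p of 0.274 in limma. Nupr1, a small stress-induced chromatin protein, read 8.48, 8.14 and 8.42 in proliferation and 8.84, 8.93 and 8.76 in differentiation. Its groups did not overlap and its difference of 0.50, the largest of the class, had an adjusted p of 0.0671 (limma). Atf5, a relative of Atf4 under similar translational control, read 8.52, 8.05 and 8.33 in proliferation and 8.74, 8.73 and 8.62 in differentiation (difference 0.39, adjusted p = 0.189, limma). Ddit3, which codes for the pro-apoptotic factor CHOP, read 7.33, 7.22 and 7.28 in proliferation and 7.50, 7.49 and 7.42 in differentiation. This was a difference of 0.20 without overlap (adjusted p = 0.282, limma). Cebpb and Cebpg, which code for dimer partners of ATF4, differed by 0.33 and 0.06. In all 6 of these genes proliferation replicate 2 was the lowest array.

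Of the 7 stress effectors downstream of ATF4 4 rose (57.1%, beside 2.94% of all genes), and these included the largest difference of all 50 genes. Stc2, which codes for the secreted glycoprotein stanniocalcin 2, read 8.24, 7.11 and 8.21 in proliferation and 10.39, 10.39 and 10.58 in differentiation. Every differentiation array was far above the highest proliferation array, and proliferation replicate 2 stood well below the other two. The difference was 2.60 (SE 0.295, 95% interval 1.90 to 3.30, adjusted p = 0.00713 in limma), which is 6.06-fold. It was 2.23 without proliferation replicate 2, and the call held whichever array was left out.

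Chac1, an enzyme that degrades glutathione, read 8.37, 8.41 and 8.53 in proliferation and 9.29, 9.12 and 9.16 in differentiation. The groups were well apart, and the difference of 0.75 (SE 0.0892, 1.68-fold) had an adjusted p of 0.00808 in limma. Without differentiation replicate 1 the adjusted p was 0.056. Ppp1r15a, which codes for GADD34, the subunit that directs protein phosphatase 1 to eIF2 and so ends the stress signal, read 7.27, 7.11 and 7.10 in proliferation and 7.74, 7.96 and 7.84 in differentiation. The gap between the groups was wider than the spread within either, and the difference was 0.69 (SE 0.0964, 1.61-fold, adjusted p = 0.0134 in limma). The call was lost without proliferation replicate 3 (adjusted p = 0.0733) and without differentiation replicate 1 (0.0575).

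Trib3, a pseudokinase that binds and restrains ATF4 and CHOP, read 7.25, 7.06 and 7.05 in proliferation and 7.56, 7.65 and 7.67 in differentiation. Proliferation replicate 1 was nearest to the other group without reaching it, and the difference was 0.51 (SE 0.0912, 1.42-fold, adjusted p = 0.0295 in limma). This call held without proliferation replicate 1 and was lost when any of the other 5 arrays was left out, with adjusted p of 0.0812 to 0.133. The remaining effectors did not pass the test. Sesn2 and Ddit4, which code for stress-induced inhibitors of the growth kinase mTORC1, differed by -0.06 and -0.36, and Vldlr, a lipoprotein receptor gene, by -0.10. Ddit4 read 8.79, 8.26 and 8.86 in proliferation and 8.33, 8.17 and 8.33 in differentiation, with proliferation replicate 2 among the differentiation values, and an adjusted p of 0.371 in limma. Without that array Ddit4 fell by 0.55 with an adjusted p of 0.0463 (limma).

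**Figure D3:**
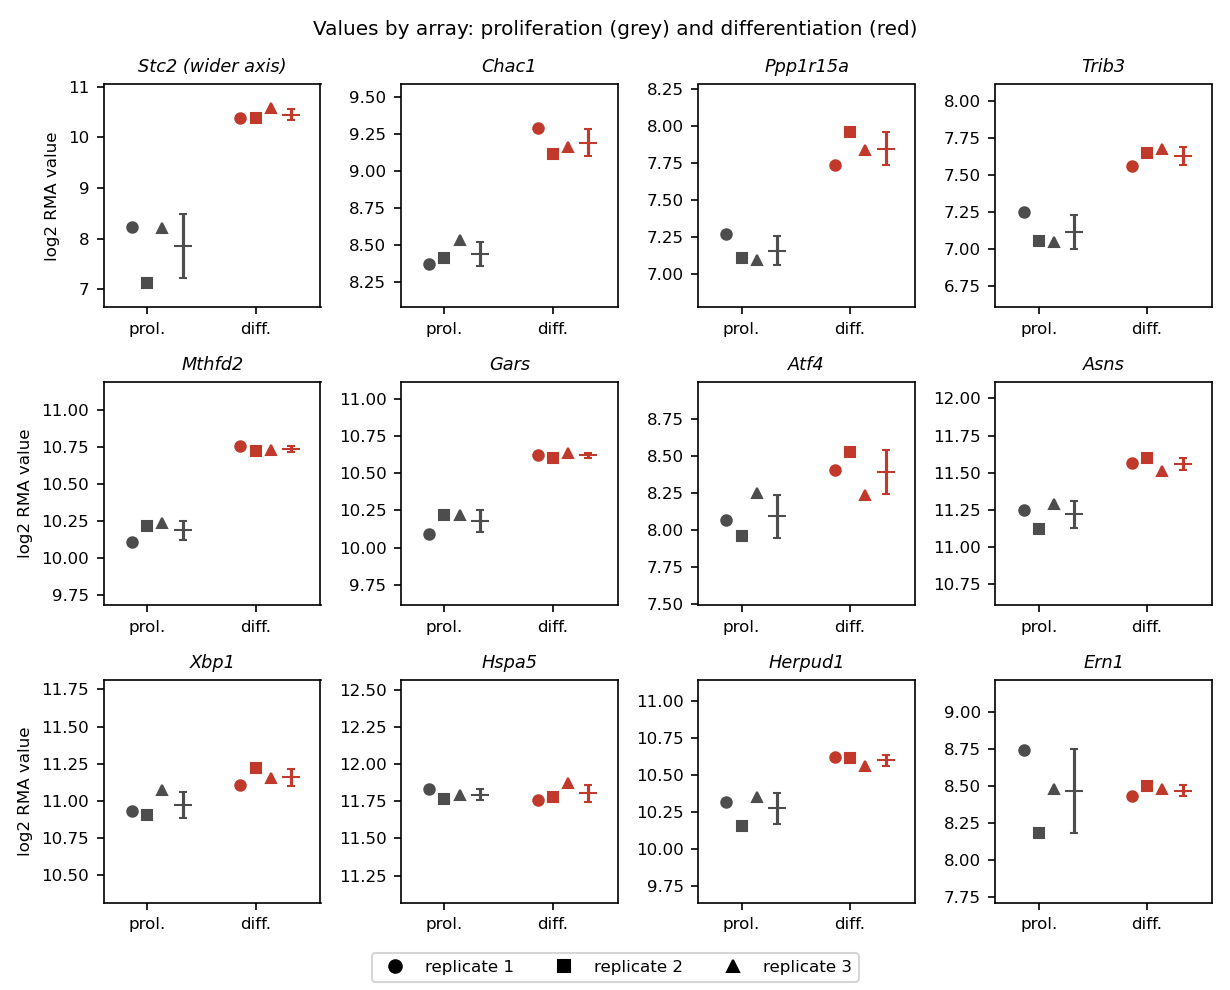
Log2 RMA values of 12 genes in each array, grey for proliferation and red for differentiation, with the replicate number given by the symbol and the mean ± SD of the 3 arrays beside the points. The vertical axes span 1.5 log2 units, apart from a wider one for Stc2. The 6 genes that rose show separate groups, those of Atf4 touch, and those of Hspa5 and Ern1 lie over each other.

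Of the 7 genes for amino acid and one-carbon synthesis 1 rose (14.3%, beside 2.94% of all genes). All 7 differences were positive, with a median of 0.32. Mthfd2, a mitochondrial folate enzyme, read 10.11, 10.21 and 10.24 in proliferation and 10.76, 10.72 and 10.73 in differentiation. The differentiation arrays lay close together and apart from the proliferation arrays, and the difference was 0.55 (SE 0.0773, 1.46-fold, adjusted p = 0.0134 in limma). The call was lost without proliferation replicate 3, differentiation replicate 1 or differentiation replicate 2, with adjusted p of 0.0636, 0.089 and 0.051. Shmt2, which feeds the same mitochondrial folate pathway from serine, read 10.00, 10.36 and 10.21 in proliferation and 10.73, 10.72 and 10.58 in differentiation. Its groups did not overlap, and its difference of 0.49 had an adjusted p of 0.0706 (limma). Asns, the asparagine synthetase gene, read 11.25, 11.12 and 11.29 in proliferation and 11.56, 11.60 and 11.51 in differentiation. Every differentiation array was higher, with a difference of 0.34 and an adjusted p of 0.0853 in limma. Pck2, the mitochondrial form of phosphoenolpyruvate carboxykinase, differed by 0.32 (adjusted p = 0.109). Phgdh, Psat1 and Psph, which together form serine from a glycolytic intermediate, differed by 0.26, 0.13 and 0.11 with overlapping groups and adjusted p of 0.498 to 0.713.

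None of the 6 amino acid transporters passed the test, and their median difference was 0.16. An unadjusted p under 0.05 was found in limma for 3 of the 6, beside 3816 of all 19938 genes. Slc7a1, a carrier of arginine and lysine, read 9.78, 9.61 and 9.72 in proliferation and 9.96, 9.92 and 10.10 in differentiation (difference 0.29, adjusted p = 0.173, limma). Slc3a2, the heavy chain that pairs with several carriers, read 12.06, 12.00 and 12.08 in proliferation and 12.29, 12.27 and 12.30 in differentiation. Both genes showed no overlap, and the difference of Slc3a2 was 0.24 (adjusted p = 0.164, limma). Slc7a5, its partner for large neutral amino acids, differed by 0.19, and Slc7a3, another carrier of cationic amino acids, by 0.14. The neutral amino acid carriers Slc1a4 and Slc1a5 differed by -0.01 and 0.02.

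The tRNA synthetases load amino acids onto their tRNAs, and several are known to be driven by ATF4 too. All 6 measured genes had positive differences, and 1 rose (16.7%, beside 2.94% of all genes). In 5 of the 6 the groups did not overlap, with differentiation higher, beside 14.6% of all genes. The same 5 had an unadjusted p under 0.05 in limma, beside 3816 of all 19938 genes. Gars read 10.09, 10.22 and 10.22 in proliferation and 10.62, 10.60 and 10.64 in differentiation. The 3 differentiation arrays lay close together and above all proliferation arrays, and the difference was 0.44 (SE 0.0789, 1.36-fold, adjusted p = 0.0292 in limma). The call was lost whichever array was left out, with adjusted p of 0.0588 to 0.148. Sars, the seryl-tRNA synthetase gene, read 10.02, 10.01 and 10.07 in proliferation and 10.32, 10.47 and 10.39 in differentiation (difference 0.36, adjusted p = 0.0609, limma). The genes for the cysteine, asparagine and tyrosine enzymes, Cars, Nars and Yars, differed by 0.29, 0.28 and 0.19 without overlap, and Wars, for tryptophan, by 0.05 with overlap. The cluster named Mars1, for methionine, read 9.67, 9.81 and 9.75 in proliferation and 10.11, 10.04 and 10.21 in differentiation. Its groups were separate, and its difference of 0.38 had an adjusted p of 0.0684 in limma.

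Of the 13 ER chaperones and folding enzymes 0 passed the test, and 12 had differences between -0.20 and 0.10. Hspa5, which codes for BiP, the main Hsp70 chaperone of the ER and the usual readout of the unfolded protein response, read 11.83, 11.76 and 11.79 in proliferation and 11.76, 11.78 and 11.87 in differentiation. The arrays of both groups lay over each other, and the difference of 0.01 had a 95% interval of -0.18 to 0.19 (adjusted p = 0.976, limma). Hspa5, Hsp90b1, Calr, Canx, Pdia3, Pdia4 and Pdia6, that is, the lumenal and membrane chaperones and the disulphide isomerases, had differences between -0.06 and 0.07. Their 95% intervals lay within -0.24 and 0.29, which bounds a change at 1.22-fold upwards and 1.18-fold downwards for each gene taken alone. The co-chaperones Dnajb9 and Dnajc3 differed by 0.10 and -0.03.

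Herpud1, a membrane protein gene of ER-associated degradation, stood apart from the other 12 genes of this class. It read 10.31, 10.16 and 10.35 in proliferation and 10.62, 10.61 and 10.56 in differentiation. The groups did not overlap, and the difference of 0.32 had a 95% interval of 0.12 to 0.53 and an adjusted p of 0.108 in limma, so it did not pass the test. Sdf2l1, which codes for a lumenal partner of the J-domain proteins, read 9.86, 9.88 and 9.89 in proliferation and 9.53, 9.72 and 9.79 in differentiation. Here every differentiation array was lower, with a difference of -0.20 (adjusted p = 0.383, limma), and the same order was seen in Manf, a secreted ER stress protein, with a difference of -0.09. Creld2, another ER stress protein, differed by 0.07.

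Relative to the mean of each gene over the 6 arrays, the 20 ATF4 targets averaged -0.15, -0.26 and -0.13 in proliferation and 0.17, 0.16 and 0.20 in differentiation. These means include Stc2, with a difference of 2.60 and its lowest value, 7.11, in proliferation replicate 2. The median difference of the 20 was 0.25. The 6 synthetases averaged -0.17, -0.14 and -0.09 in proliferation and 0.10, 0.15 and 0.15 in differentiation. In both classes all differentiation arrays lay above all proliferation arrays. The 13 chaperones averaged 0.01, -0.02 and -0.02 in proliferation and -0.03, 0.03 and 0.01 in differentiation, without an order. Proliferation replicate 2 was the lowest array in 24 of the 50 genes (48%) and in 5122 of all 19938 genes (25.7%). Without this array 4 of the 50 genes rose and 1 fell, with Trib3 and Gars lost and Ddit4 gained.

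**Figure D4:**
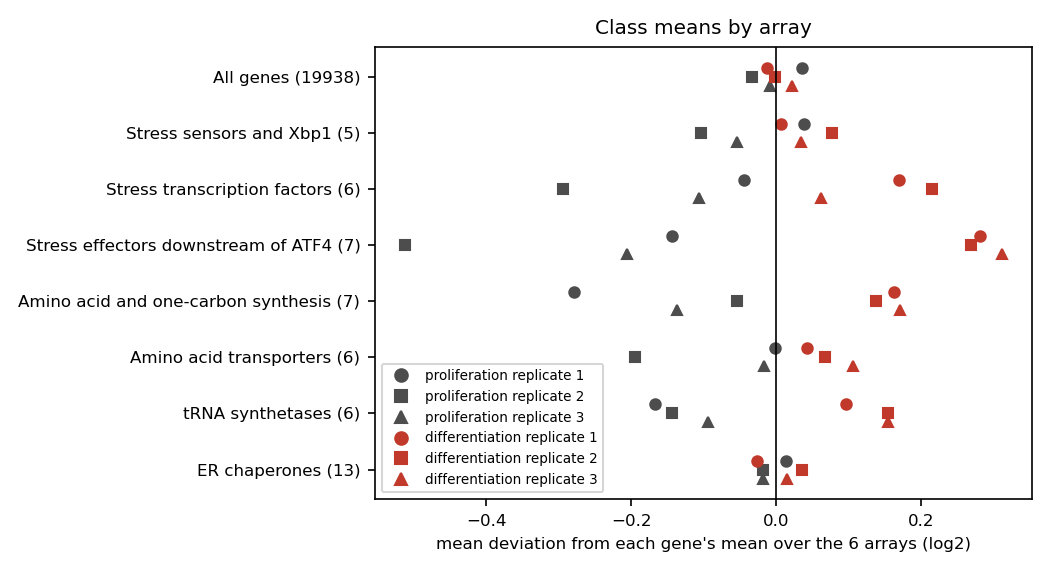
Mean deviation of each class in each array from the mean of its genes over the 6 arrays (log2), with the number of genes in parentheses, grey for proliferation, red for differentiation and symbols for the replicates. Grey and red points are separate for the stress transcription factors, the effectors, the synthesis genes, the transporters and the synthetases, and they are mixed for the ER chaperones, the sensors with Xbp1 and all genes. The mean of the 7 effectors includes Stc2, with a difference of 2.60, while their median difference was 0.51.

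Further genes of the same pathways were taken from lists of related genes, to be read beside the 5.91% of all genes that were called (2.94% rose). Of 18 other measured genes of the integrated stress response 3 rose (16.7%), with a median difference of 0.07. These were Gadd45a, which acts in growth arrest (difference 1.44, adjusted p = 0.00327 in limma), Atf3, a stress-induced factor of the ATF family that the study itself names (1.37, adjusted p = 0.0367), and Jdp2, which codes for a related dimer partner (0.75, adjusted p = 0.00729). Of the 5 genes of this list with an unadjusted p under 0.05, 4 were higher and 1 was lower, namely Eif2ak2, the gene of the eIF2 kinase PKR, with a difference of -0.42 (adjusted p = 0.245, limma). Of 17 other genes of amino acid synthesis and one-carbon metabolism 2 rose (11.8%), namely Aldh1l2 and Aldh18a1, while 9 of the 17 differences were negative and the median was -0.01. Aldh1l2, which acts in the mitochondrial folate pathway with Mthfd2 and Shmt2, read 9.53, 9.47 and 9.75 in proliferation and 10.70, 10.68 and 10.68 in differentiation, far apart, with a difference of 1.10 (adjusted p = 0.00376, limma). Aldh18a1, an enzyme of proline synthesis, differed by 0.42. Got1, a cytosolic aspartate aminotransferase gene, and Shmt1, the cytosolic counterpart of Shmt2, had differences of -0.50 and -0.49 without overlap, with an unadjusted p under 0.05 and adjusted p of 0.137 and 0.167 in limma.

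Among 20 other amino acid transporters 1 rose (5%), the glycine carrier gene Slc6a9, by 0.57, and 0 fell, beside 2.94% and 2.97% of all genes. The share called in either direction, 5%, was close to the 5.91% of all genes. An unadjusted p under 0.05 was found in limma for 8 of the 20 transporters, 4 higher and 4 lower, and the median was 0.05. The 4 lower ones were Slc38a4, Slc38a3, Slc1a3 and Slc43a1, with differences of -0.85, -0.74, -0.59 and -0.39. The 4 higher ones were Slc36a1, Slc6a9, Slc38a7 and Slc7a2, with differences of 0.60, 0.57, 0.30 and 0.26. The methods' t-test was passed by 2 of the list, Slc38a4 and Slc36a1 (adjusted p = 0.0849 and 0.0666 in limma). Among 13 other cytosolic synthetases 1 rose (7.69%), Eprs for glutamate and proline, by 0.41, and 0 fell, beside 2.94% and 2.97% of all genes. The share called in either direction was 7.69% as well, near the 5.91% of all genes, and rests on 1 gene. The median of the 13 was 0.08 and 4 of the differences were negative. In 6 of the 13 every differentiation array lay above every proliferation array, beside 14.6% of all genes. In Vars, for valine, at -0.16 the order was the opposite, which held for 12.9% of all genes. The largest difference was that of Tars, for threonine, at 0.47 without overlap (adjusted p = 0.0897, limma). Among 16 mitochondrial synthetases 0 were called in limma, with 3 at an unadjusted p under 0.05, of which 2 were higher and 1 lower, and 0 passed the methods' t-test. Their median was -0.07.

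Genes of the ER outside the 50 were counted in the same way. Of 21 other genes for folding, oxidation and glycan handling in the ER 0 were called in limma (3 at an unadjusted p under 0.05, all higher, 0 by the methods' t-test), with a median of 0.05. In 8 of the 21 every differentiation array was higher and in 0 lower, beside 14.6% and 12.9% of all genes. Of 20 genes of the translocon and the oligosaccharyltransferase 0 were called in limma (2 unadjusted, both lower, 0 by the methods' t-test), with a median of -0.05. Here every differentiation array was higher in 1 gene and lower in 4. Of 17 genes of ER-associated degradation 2 rose (11.8%, beside 2.94% of all genes) and 0 fell, with a median of 0.16. The 2 that rose were Edem1 (difference 0.52, adjusted p = 0.0289 in limma) and Os9 (0.51, adjusted p = 0.0148). Both code for lectin-like proteins that hand misfolded glycoproteins to degradation. An unadjusted p under 0.05 was found in limma for 6 of the 17, all higher, and 0 passed the methods' t-test. In 6 of the 17 every differentiation array was higher and in 1 lower. The largest difference that was not called was that of Herpud2, at 0.36 (adjusted p = 0.0534, limma).

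Other measures moved between the groups at the same time, and their part in the differences given here was not tested. Of 14 cell division genes 13 fell, with a mean log2 value of 9.40 to 10.10 in the proliferation arrays and 7.75 to 7.99 in the differentiation arrays. Proliferation replicate 2 was the highest of these. Of 6 measured markers of enteric neural crest progenitors 2 rose (Nes and Ngfr) and 0 fell, while Ednrb and Ret were lower without overlap at differences of -0.70 and -0.18 (adjusted p = 0.171 and 0.408, limma). The list had mean values of 11.2 to 11.4 in proliferation and 11.6 in differentiation. All 6 of them lay above the median of all clusters. Of 4 glial markers 1 rose (Gfap) and 2 fell (Fabp7 and S100b), of 7 neuronal markers 1 rose (Tubb3), and of 3 markers of interstitial cells of Cajal 1 fell (Ano1). The other markers of interstitial cells, Kit and Etv1, were lower without overlap at -0.85 and -0.21 (adjusted p = 0.0501 and 0.264, limma). Kit also passed the methods' t-test. Of 6 smooth muscle markers 4 rose (Tagln, Actg2, Acta2 and Cnn1), with means of 6.75 to 6.78 in proliferation and 7.49 to 7.64 in differentiation. Markers of fibroblasts (6), macrophages (5), endothelium (4), epithelium (4) and mesothelium (4) included 0 called genes in limma, 1 with an unadjusted p under 0.05 (a fibroblast marker) and 0 by the methods' t-test, and all 5 macrophage markers had a mean under the median of all clusters.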

How the data were processed

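Total RNA of 6 enterosphere samples was measured on Affymetrix Mouse Gene 1.0 ST arrays, 3 for proliferation and 3 for differentiation, with groups and replicate numbers taken from the labels. The authors normalised the arrays with RMA in Partek Software, per the methods, and deposited log2 values of 35556 transcript clusters without missing values. Their genome build was not given in the sources used here. RMA as usually run equalises the distributions of the arrays, so a shift shared by most genes would not be seen. The methods report independent experiments, each started from littermates, and picked enterospheres went into either medium. By that account the replicates are separate cultures, and each experiment could have supplied both groups. The labels neither name separate cultures nor tie replicate numbers to experiments, so the main model did not pair the arrays. If the numbers do mark shared experiments, the model with the replicate block applies, which kept 2 of the 6 calls among the 50 genes. The p-values measure the spread between these samples.

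Symbols came from the annotation of the platform. The 52 gene symbols and all lists were chosen with earlier results of these data known. The groups were compared with lmFit and eBayes of limma 3.58.1 in R 4.3.3, two-sided, over all 35556 clusters without a filter (prior degrees of freedom 2.83). Confidence intervals are those of limma at 95% for single genes. Per-array values are given for called genes among the 50, for the 2 genes with the largest absolute difference in each of 7 classes and for Atf4, Ddit3, Xbp1, Hspa5 and Asns, and of 9 further lists and 10 marker lists up to 4 called genes are named. The array values of Ddit4, Ern1, Mars1 and Aldh1l2 and the uncalled genes named from the further lists were chosen after their values were seen. Of the 218 entries of these lists 205 were measured, 6 of them through a synonym. The clusters of Aars and of the entries not matched were not analysed here.

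The comparison was repeated with replicate as a block, with robust limma-trend, after cyclic loess or centring of arrays on their medians, over brighter clusters (mean at or above the median) or those with 1 symbol, with array weights, without each array, with clusters averaged per gene, and by the t-test of the methods, as stated there and with Benjamini-Hochberg adjustment. Counting Mars under Mars1 was added after the data were seen. Motif letters were searched in the RefSeq promoter table with Python 3.11.15 and pandas 2.3.3, and plots were drawn with matplotlib 3.10.9. The steps were tested on simulated data. Arrays carry no counts, so their number limits the precision.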

Additional observations from a re-analysis of the deposited data

How the results depend on the processing

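The median difference of the ATF4 targets stayed between 0.22 and 0.27 under every alternative that gives a median, while the number of genes called depended on the setting. With the replicate number as a block, 664 clusters were called instead of 1459, and 2 of the 50 genes (Stc2 and Chac1), 2 ATF4 targets and 0 synthetases. The numbers were not taken to pair the samples, since the labels do not tie them to experiments. The deviations of same-numbered arrays correlated at -0.00301, 0.0898 and -0.0742, and 1 of 6 samples correlated best with its own number. These correlations concern the numbering and cannot show whether an experiment supplied both groups. Without 1 array at a time 294 to 1297 clusters, 1 to 5 of the 50 genes, 1 to 5 ATF4 targets and 0 synthetases were called. Leaving out proliferation replicate 3 gave 2 of the 50 genes, leaving out differentiation replicate 1 gave 1 and leaving out differentiation replicate 2 gave 3.

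With limma-trend 13 of the 50 genes, 8 ATF4 targets, 3 synthetases and 1 chaperone were called, with the dim clusters left out 14, 8, 4 and 1, and with the clusters averaged per gene 11 of the 50, 2 synthetases and 1 chaperone. The calls over all clusters rose as well, to 1783 of 35556 with limma-trend and 2112 of 17778 without the dim clusters. For the averaged clusters the calls over all genes were not counted. With clusters of 1 symbol alone 10 of the 50 and 2 synthetases were called, with cyclic loess 2 synthetases, and with centred arrays 0 synthetases. Herpud1 was the chaperone gained with limma-trend and without the dim clusters (adjusted p = 0.0469 and 0.0455). Array weights called 12721 clusters, 24 of the 50 genes (22 higher and 2 lower), 13 ATF4 targets, 4 synthetases and 2 chaperones, with medians of 0.23 for the synthetases and -0.025 for the chaperones. The chaperone median was -0.026 after centring. The t-test of the methods called 3 of the 50 genes, a share near the 5.66% of all genes. All 3 were ATF4 targets, and 0 synthetases were called. After Benjamini-Hochberg adjustment that t-test called 176 clusters and 0 of the 50 genes, with 0 ATF4 targets and 0 synthetases. The causes of these shifts were not tested. Stc2 was called in every limma alternative. The median of all genes was 0.02, 0.00 with cyclic loess and -0.01 after centring.

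Changes of sign concerned genes with differences between -0.03 and 0.14. After centring, Ern1 stood at -0.033, Eif2ak3 at -0.029, Hspa5 at -0.026, Slc1a5 at -0.018, Calr at -0.010 and Canx at -0.0079, and with cyclic loess Slc1a5 at -0.00032. With array weights Ern1 stood at -0.032, Hspa5 at -0.025, Wars at -0.046 and Slc7a3 at -0.16. Without 1 array at a time Ern1 ranged from -0.14 to 0.14, Cebpg from -0.012 to 0.11, Slc7a3 from -0.12 to 0.29, Slc1a4 from -0.040 to 0.024, Slc1a5 from -0.048 to 0.11, Hspa5 from -0.025 to 0.030, Eif2ak3 from -0.029 to 0.031, Pdia3 from -0.052 to 0.00043, Wars from -0.012 to 0.097 and Dnajc3 from -0.094 to 0.018. The precision rests on 3 arrays a group, with a median SD of 0.14 within groups.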
